A study of Mus musculus with 22 samples.

Results

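Short H3K9me3 sites with open chromatin were described in mouse embryonic stem (ES) cells, that is, places where a mark of closed chromatin and an accessible stretch of DNA were called together. The sites were chosen by measured values, as peaks of H3K9me3 scramble KD replicate 1 that were shorter than 8 kb, overlapped a peak in each of the other 3 H3K9me3 lists and overlapped a peak in both scramble KD ATAC lists. Of the 26414 peaks in that list, 24847 were shorter than 8 kb, 10140 of these were found in all 4 H3K9me3 lists, and 1286 met the whole rule (4.87% of the list). Another 825 had an ATAC peak in 1 scramble KD list only and were not followed. The remaining 8029 had no ATAC peak in either scramble KD list. They are called closed short sites below and served as the comparison, since they met every other part of the rule. They were not matched for length, with a median of 3329 bp against 4157.5 bp at the sites and 2404 bp in the whole list. An overlap anywhere in a peak was counted, and the part of length in the ATRX and G4 comparisons below was not tested.

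The cells were 1 hybrid ES line from a cross of the strains CAST/Ei and 129/Sv/Jae. Per the study's methods the line is XX and was grown on feeder fibroblasts, which were removed before transfection. Cells received LNA gapmers, short antisense oligonucleotides that direct cleavage of an RNA, and were collected 12 h later. The oligonucleotide was a scramble control (scramble KD) or was aimed at TERRA, the RNA transcribed from telomeric repeats (TERRA KD), and nothing else differed between the groups by their labels. ATRX, H3K9me3, G4 and ATAC were each profiled in 2 replicates per condition. The study calls the ATRX and G4 replicates biological ones, but the labels do not say whether replicates were separate cultures, so p-values measure only the spread between these libraries, and the level of TERRA itself is not in the lists.

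H3K9me3 is the histone mark of constitutive heterochromatin, and in ES cells it is known to sit on retrotransposons, satellite repeats, telomeric repeats and zinc finger gene clusters. Nucleosomes in such chromatin are usually packed, which leaves the transposase used in ATAC-seq little access. ATRX is a chromatin remodeller that, with DAXX, places the histone variant H3.3 at heterochromatic repeats, and it binds DNA able to fold into G-quadruplexes. G-quadruplexes (G4) are stacked guanine structures, mapped here with an antibody against them. These were bulk libraries, so a site with both signals may carry them on the same chromosome copy or in different cells, and these cannot be told apart.

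The ATRX libraries held 4104486 to 15506154 tags after removal of duplicates, the H3K9me3 libraries 5435286 to 13898785, the G4 libraries 2961038 to 24588605 and the ATAC libraries 5976014 to 7883648. The number of ATRX peaks was 7321 and 13652 under scramble KD, then 41384 and 21718 in TERRA KD, and the largest list came from the library with the fewest tags. The G4 lists held 140119 and 389434 peaks under scramble KD, then 173699 and 225024 in TERRA KD, and within each replicate number the list with more tags held more peaks. H3K9me3 replicate 2 gave short peaks, with medians of 491 and 515 bp, against 2404 and 3119.5 bp in replicate 1. The input libraries set against ATRX and H3K9me3 held 3366921 and 3374834 tags in replicate 1, but 19735093 and 28622103 in replicate 2, and their part in the peak lengths was not tested. As a check of the cell type, 26 or 27 of 28 pluripotency genes had an ATAC peak within 1 kb of the transcription start site (TSS) in each list. Pou5f1 and Sox2 had one in all 4 lists and Nanog in 3, while 6 or 7 of 12 fibroblast markers had one, and a part of feeder cells in the lists was not tested.

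Sequences at the ATAC summits are shown first, since repeats made up most of the sites. A summit is the position of strongest ATAC signal, taken from scramble KD replicate 1, and 1285 of the 1286 sites lay on a chromosome with sequence. Of the 1285 windows of 300 bp around the summit, 683 (53.2%) shared at least 40 words of 25 bases with the window of another site. This grouping was chosen after the data had been seen. The 6 largest groups are called families 1 to 6 and held 179, 60, 45, 44, 40 and 19 sites. One stretch per family is printed from the best-ranked site whose window holds the word found in most windows of that family, in capitals. Sequence and coordinates are of GRCm38 and are written 5′ to 3′ on the strand given.
Family 1, chr8:51569913-51569942, minus strand: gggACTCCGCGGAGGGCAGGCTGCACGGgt
Family 2, chr1:4559958-4559987, plus strand: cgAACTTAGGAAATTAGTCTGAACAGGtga
Family 4, chr9:88672261-88672290, plus strand: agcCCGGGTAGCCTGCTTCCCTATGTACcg
Family 6, chr8:127898732-127898761, plus strand: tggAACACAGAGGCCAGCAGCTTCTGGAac
Family 3, chr12:81459229-81459378, minus strand: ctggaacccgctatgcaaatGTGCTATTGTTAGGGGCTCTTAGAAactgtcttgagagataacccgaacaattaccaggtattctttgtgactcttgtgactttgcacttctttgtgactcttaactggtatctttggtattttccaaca
Family 5, chr3:7791031-7791180, minus strand: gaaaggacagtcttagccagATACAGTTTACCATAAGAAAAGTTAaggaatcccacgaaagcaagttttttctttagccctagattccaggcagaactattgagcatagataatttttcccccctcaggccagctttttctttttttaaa

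Families 1, 2, 4 and 6 were mostly tandem arrays, in which the sequence repeated itself at a fixed spacing. An array was called at the summit in 131 of the 179, 55 of the 60, 42 of the 44 and 13 of the 19 sites, and in none of families 3 and 5. The spacing was 204 bp at the printed site of family 1, 212 bp in family 2, 208 bp in family 4 and 201 bp in family 6. Their windows were rich in G and C, with medians of 66.0%, 65.0%, 63.3% and 62.7%, and held a median of 21, 18, 17 and 17 CpG dinucleotides. Families 3 and 5 were not tandem, had 44.0% and 40.2% GC, and held a median of 3 and 2 CpG. As background, young mouse L1 retrotransposons are known to start with a promoter built from tandem monomers of about this kind. No repeat annotation was used here, so none of the families was assigned to an element.

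A tandem array was called wherever at least 20 words of 15 bases recurred at a shared spacing close to 200 bp, leaving out words that also recurred within 60 bases. Within the whole peak, an array was found in 324 of 1285 sites with open chromatin (25.2%). The share was 5.68% of 7992 closed short sites and 7.13% of 26312 peaks of the whole list, although open sites were longer than closed ones (medians of 4157.5 and 3329 bp). In 600 bp around the summit, an array was found in 276 sites (21.5%), against 6.63% of 78468 summits of all ATAC peaks of scramble KD replicate 1.

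The 1285 sites thus fell into 276 with a tandem array at the summit, 653 whose 300 bp window was otherwise more than 50% repeat-masked, and 356 that were neither. Over all sites, 71.7% of windows were mostly repeat-masked, against 19% of all ATAC summits and 2.83% of windows at gene starts. Over whole peaks the median masked share was 65.5% in the open sites and 77.7% in closed short sites, so it was the arrays, and not repeats as such, that were more frequent at open sites. Short motifs were searched on both strands in the same windows, and each of the preset ones but the telomeric repeat pair was less frequent than at all ATAC summits. The ZFP57 core TGCCGC, which guides a repressor to imprinted loci, was in 5.84% of the sites, 8.36% of all ATAC summits and 17.2% of gene starts. The E-box CACGTG was in 2.26%, 6.02% and 7.25%, and the CTCF core AGGGGGCGC in 0 of 1285 windows and 0.844% of ATAC summits. The telomeric repeat pair TTAGGGTTA was in 7 windows (0.545%), against 0.321% of ATAC summits.

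The ETS core CCGGAAGT was in 0.545% of the sites and 1.36% of all ATAC summits, the CRE TGACGTCA in 0.467% and 0.703%, the NRF1 core GCGCATGC in 0.467% and 1.25% and the palindrome CTCGCGAG in 0.233% and 0.291%. The word AAGATGGC, the core bound by YY1, was searched after it had been seen in family 1. It was in 251 windows (19.5%), against 5.49% of ATAC summits and 3.42% of gene starts, and within the sites it was in 94.4% of family 1, 66.7% of family 2 and none of family 4. A match is a description of the sequence, not of binding.

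Copies of these families outside the sites show how much of each was covered. The capital words were searched in the whole genome and hits within 1000 bp were merged into loci. Family 1 had 805 loci, of which 18.9% overlapped a site of the rule, and family 4 had 2817, of which 1.7% did. H3K9me3 peaks of scramble KD replicate 1 covered 48.9% of family 1 loci, 67.9% of family 5 loci and 53.6% of family 3 loci, against 7.83% in family 2 and 6.35% in family 4. ATAC peaks of the same condition and number were on 55.4% of family 1 loci, 68.8% of family 2 and 71.4% of family 4. The contrast in H3K9me3 was not seen in every list, since in TERRA KD replicate 2 it covered 9.07% of family 1 loci and 9.27% of family 4 loci, and in scramble KD replicate 2 24.8% and 8.27%. In scramble KD replicate 1 most loci of families 2 and 4 thus had an ATAC peak and no H3K9me3 peak. Short reads from near-identical copies cannot be placed with certainty, so the value of 1 copy may include reads of others, and the copies cannot be told apart.

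**Figure D1:**
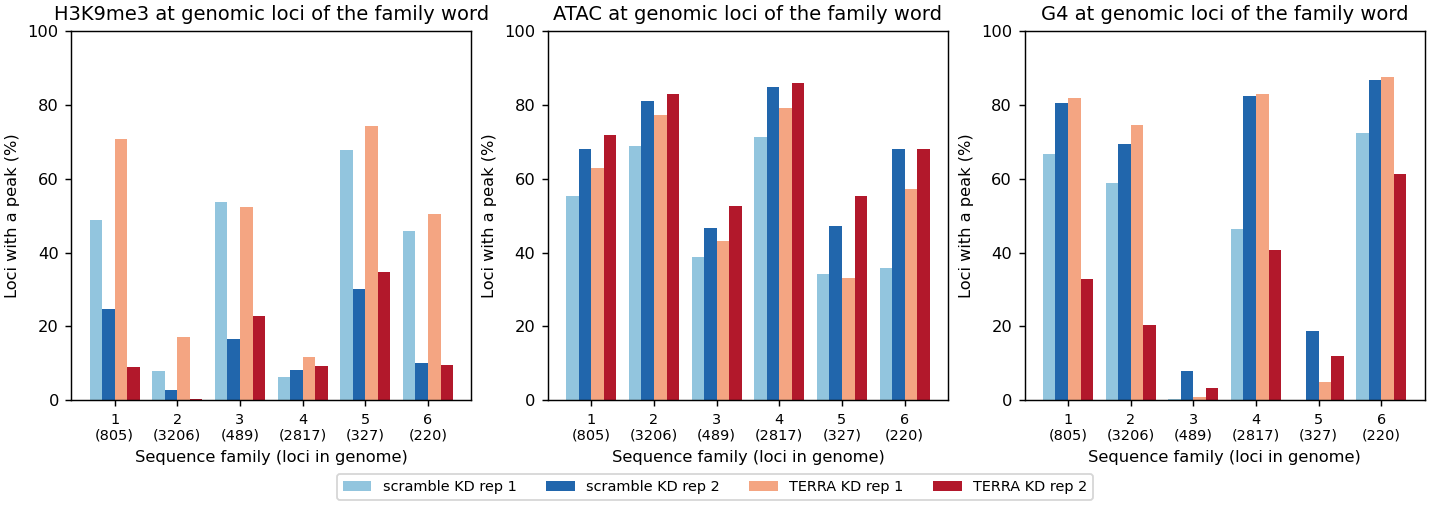
Bars give the percent of genomic loci of the most shared word of each sequence family that overlapped a peak of H3K9me3, ATAC or G4 in each of the 4 libraries, with the number of loci in parentheses. Loci of families 1, 3, 5 and 6 were covered by H3K9me3 of scramble KD replicate 1 in 45.9% to 67.9%, those of families 2 and 4 in 6.35% to 7.83%, and G4 peaks lay mostly on the tandem families 1, 2, 4 and 6.

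The H3K9me3 peaks of the sites were 564 to 7993 bp long, with quartiles of 3122 and 5474 bp, and held 15 to 4562 tags (median 128). Their median fold enrichment, the ratio of tags to the local background, was 29.4, against 29.0 at closed short sites and 26.6 in the whole list. The ATAC peaks inside them were short, with a median of 554 bp against 518 bp over the whole ATAC list, and 1160 sites (90.2%) held a single ATAC peak. The summit lay inside the H3K9me3 peak at 1163 sites (90.4%). Ranked within its own list, the strongest ATAC peak of a site stood at a median percentile of 62.9 and 74.4 in scramble KD. The rule asked for a peak in both of these lists, and the strongest was taken. Both steps favour high ranks, so the percentiles are descriptions.

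In replicate 1 the called H3K9me3 peaks mostly spanned the accessible stretch, as the rule favours. A call is a single interval, so it does not show whether the signal dips within it. A peak of scramble KD replicate 1 covered the summit itself at 91.0% of sites, 75.3% and 75.7% at 1 kb on either side and 22.2% and 22.5% at 4 kb. In the lists of replicate 2, whose peaks are short, the summit was covered at 31.7% of sites in scramble KD and 32.1% in TERRA KD. The rule used these lists, so the shapes are descriptions. The ATAC signal was narrow, with 12.4% and 12.8% of sites still inside a peak at 500 bp from the summit.

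**Figure D2:**
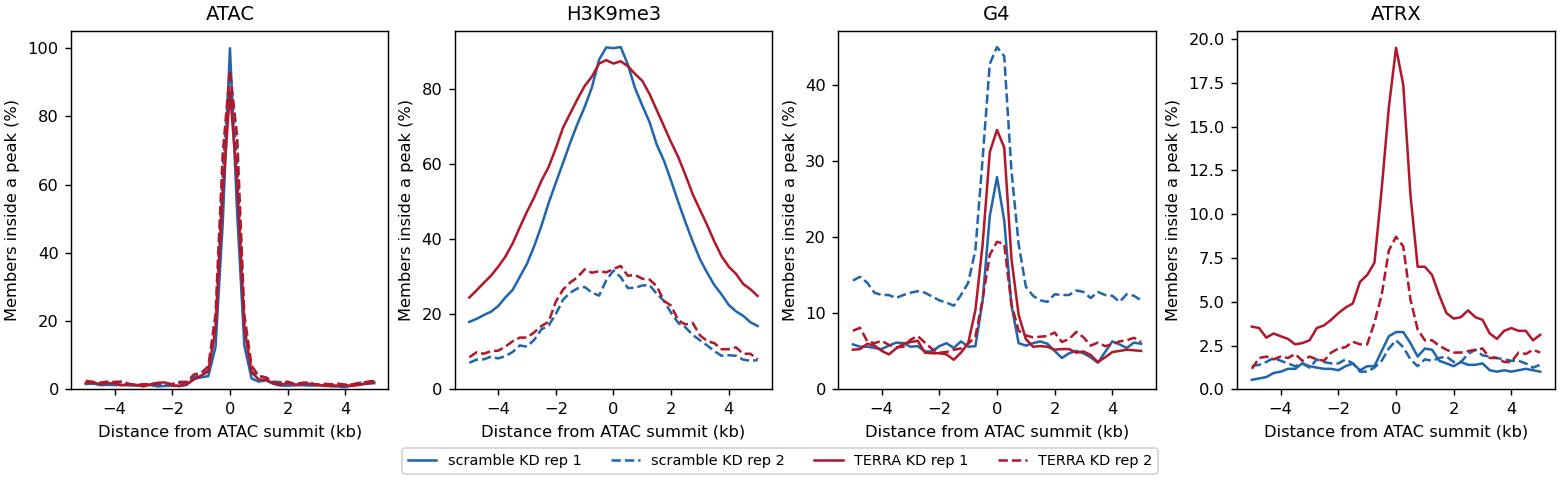
Lines give the percent of the 1286 sites that lay inside a peak at each distance from the ATAC summit (kb), for ATAC, H3K9me3, G4 and ATRX, with scramble KD in blue, TERRA KD in red and replicate 2 dashed. H3K9me3 falls off over several kb, while G4 and ATRX peaks are most frequent at the summit, with G4 at 27.9% and 45.0% in scramble KD and ATRX at 19.5% and 8.71% in TERRA KD.

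Most sites were far from genes. By the centre of the peak, 1010 (78.5%) were intergenic, 256 (19.9%) intronic, 17 (1.32%) exonic and 3 (0.233%) in a promoter, taken from 1000 bp before to 100 bp after a start. Of closed short sites 81.6% were intergenic, and of all ATAC peaks of scramble KD replicate 1 only 42.8% were. A site lay within 1 kb of the TSS of a curated gene in 52 cases (4.04%), against 1.26% of closed short sites, 2.17% of the whole H3K9me3 list and 15734 of the 78571 ATAC peaks of scramble KD replicate 1. A TSS lay inside the site in 28 of these cases, and 42 of the 52 were neither tandem nor mostly repeat at the summit. A G4 peak was listed at 28 and 44 of the 52 under scramble KD, then at 28 and 29 in TERRA KD, and an ATRX peak at 6 and 2 (11.5% and 3.85%), then at 21 and 9 (40.4% and 17.3%). Over all 1286 sites the ATRX shares were 8.94% and 9.49%, then 43.5% and 18.9%, and the G4 shares 42.3% and 68.8%, then 48.8% and 39.4%.

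A few of the 52 sites are described singly, chosen after their values had been seen. A site ended 802 bp from the TSS of Terf1, which encodes the shelterin protein TRF1 that binds telomeric repeats (chr1:15802739-15804844). Its ATAC summit lay in a promoter, taken as above, so near the end of the site that faces the TSS or outside it. Its H3K9me3 fold enrichment was 26.1 and 7.49 under scramble KD, then 21.8 and 8.9 in TERRA KD, its ATAC fold 8.45 and 7.15 under scramble KD, then 5.42 and 8.38 in TERRA KD, and it had no ATRX or G4 peak in any list. The H3K9me3 peak held 45 tags in scramble KD replicate 1 but 5 in replicate 2, so the values of replicate 2 rest on few tags. Fold enrichment depends on the background of each list, so it orders sites within a list and is not compared between lists.

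A site over the TSS of Atf7ip, a cofactor of the H3K9 methyltransferase SETDB1, lay at chr6:136516030-136522168. Its ATAC fold was 11.2 and 13.9 under scramble KD, then 14.6 and 15.6 in TERRA KD, and ATRX had a peak there in TERRA KD replicate 1 and no other list, with a fold of 8.16. In scramble KD replicate 1 H3K9me3 covered 6139 bp, and the site was part of one of 19252 bp in TERRA KD replicate 1. In the lists of replicate 2 the longest peak there was 1431 bp in scramble KD and 991 bp in TERRA KD, so the replicates differed in opposite directions. Sites also lay within 1 kb of the TSS of Taf15, a factor of the FET family, Henmt1, the methyltransferase of piRNA ends, and Ednrb, the endothelin receptor B.

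The gene lists were described by counts. Of all 26182 curated genes, 291 (1.11%) had a site over the gene body and 54 (0.206%) within 1 kb of the TSS. A closed short site lay over the body of 1227 genes (4.69%). Zinc finger genes, many of which encode KRAB repressors of retrotransposons, had a site over the body in 13 of 428 (3.04%) and near the TSS in 5 (1.17%), while closed short sites lay over 47 of them. The 13 were Zfp2, Zfp996, Zfp458, Zfp970, Zfp992, Zfp978, Zfp991, Zfp984, Zscan25, Zfp141, Zfp975, Zfp869 and Zfp275, and near the TSS were Zfp996, Zfp991, Zfp958, Zfp869 and Zfp280d. At Zfp869 the site covered the TSS, with an ATAC fold of 12.3, 13.1, 13.7 and 12.3 over scramble KD and TERRA KD replicates 1 and 2. Zfp978 and Zfp991 shared 1 site, which had weaker ATAC values, 2.16, 2.32, 2.77 and 2.55. These genes lie in clusters of near-identical copies, where reads can be misplaced between copies.

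Germline genes, which are methylated and silent outside the germ line, had a site over the body in 5 of 71 (7.04%) and none near the TSS. They were Tex14, which acts at intercellular bridges of germ cells, Hsf2bp and Mei4, which act in meiotic recombination, Asz1, a piRNA pathway gene, and Stk31, with 2 neighbouring sites. Every one of these sites was intronic and lay 15960 to 72569 bp from the TSS. Of the 71 germline genes, 4 (5.63%) had a closed short site over the body. Imprinted genes had a site in 3 of 72 (4.17%), in introns of Ddc and Cdh15 and in an exon of Peg10, and none near a TSS. A closed short site lay over 5 of the 72 (6.94%). Ddc encodes the decarboxylase that makes dopamine and Peg10 is a gene derived from a retrotransposon. At Peg10 the ATAC fold was 3.1 and 3.9 in scramble KD and 3.06 in TERRA KD replicate 1, and TERRA KD replicate 2 had no peak.

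Of 1460 olfactory and vomeronasal receptor genes, 3 had a site over the body, Vmn2r22, Vmn2r29 and Vmn2r79, and 2 near the TSS, Vmn2r29 and Vmn2r44. A closed short site lay over 20 of them (1.37%). The fibroblast marker Lum had a site 987 bp from its TSS, with an ATAC fold of 12.2, 13.8, 15.4 and 13.1, and a share of that signal from feeder cells was not tested. None of the 18 two-cell stage genes, 58 clustered protocadherin genes, 82 cytosolic ribosomal protein genes, 28 pluripotency genes or 25 heterochromatin genes on the lists had a site over the body or near the TSS. Closed short sites lay over 12 of the 58 protocadherin genes (20.7%). Atf7ip and Terf1 were not on these lists.

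The 10 sites with the highest worst percentile of fold enrichment over the 4 H3K9me3 and 2 scramble KD ATAC lists are given as descriptions, since the ranking uses those values. They were nearest to Slco1b2, Cd38, 4732416N19Rik, Catspere2, 1190028D05Rik, Hunk, Cfap126, Vmn2r29, Sema3d and G530011O06Rik. The first, near the liver transporter gene Slco1b2 (chr6:141593178-141601124), stood at or above percentile 88 in all 6 lists, with an H3K9me3 fold of 62.8, 9.37, 53.1 and 13.2 and an ATAC fold of 12.5, 13.7, 13.8 and 14.8. The site at Vmn2r29 (chr7:7277399-7281188), a vomeronasal receptor gene, covered the TSS. Its ATAC fold was 19.6 and 17.5 under scramble KD, then 16.0 and 16.2 in TERRA KD.

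ATRX peaks were listed at more of the sites in both TERRA KD libraries. In scramble KD an ATRX peak overlapped 115 of the 1286 sites in replicate 1 (8.94%) and 122 in replicate 2 (9.49%), and in TERRA KD 559 (43.5%) and 243 (18.9%). Both TERRA KD libraries lay above both scramble KD libraries. TERRA KD exceeded scramble KD by 34.5 percentage points in replicate 1 and by 9.41 in replicate 2, a mean of 22.0 ± 17.8 (SD, n = 2 differences). The two-sided exact permutation test over the 4 libraries gave p = 0.333, the smallest p it allows, so the design could not reach 0.05. With peaks of a −log10 p of at least 5 alone, the mean difference was 4.59 points.

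The ATRX share was higher in TERRA KD at closed short sites too, with 7.12% and 8.49% under scramble KD, then 40.1% and 12.9%, and the difference between open and closed sites was 1.82, 0.993, 3.39 and 6.02 percentage points over scramble KD 1 and 2 and TERRA KD 1 and 2. It was positive in 4 of 4 libraries, with a mean of 3.05 ± 2.21 (SD, n = 4) and p = 0.125 in a two-sided exact sign-flip permutation test, again the smallest p allowed. The lists themselves grew, and with the 7321 top-ranked peaks of every list the ATRX share was 8.94% and 6.14% under scramble KD, then 17.6% and 11.6% in TERRA KD. At closed short sites the same setting gave 7.12%, 5.46%, 20.8% and 6.31%, so the difference between open and closed sites was then no longer of 1 direction.

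By individual site, 85 (6.61%) had an ATRX peak in both TERRA KD lists and in neither scramble KD list, against a background of 4.13% of all 26414 peaks and 5.84% of closed short sites. A single site (0.0778%) changed the other way, against 0.0606% of all peaks. It lay near Etv6, a gene of an ETS family repressor. An ATRX peak was in all 4 lists at 26 sites (2.02%), against 0.734% of all peaks and 0.536% of closed short sites, and 10 of the 26 were on chromosome Y, described below. No ATRX list had a peak at 573 sites (44.6%), against 64.4% of all peaks and 52.0% of closed short sites.

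The 10 best-ranked sites with ATRX in TERRA KD only were near Catspere2, 1190028D05Rik, Hunk, Gm1322, Mthfsl, Bmp10, Shcbp1, Rprl1, Zbtb24 and Mei4. The family 1 site printed above, in an intergenic stretch 786126 bp from the start of 1190028D05Rik (chr8:51567230-51570485), had an ATRX fold of 18.95 and 6.39 in TERRA KD. Its G4 fold was 55.8 and 17.96 under scramble KD, then 17.7 and 4.47 in TERRA KD, and its ATAC fold was 14.1, 18.1, 15.9 and 17.5, so accessibility stayed listed in every library. The family 4 site printed above, near Mthfsl (chr9:88671552-88678307), had an ATRX fold of 9.5 and 5.72 in TERRA KD and a G4 peak in every list but TERRA KD replicate 2. Zbtb24 encodes a zinc finger protein mutated in a human immunodeficiency with unstable pericentromeric heterochromatin. The site named for it lay 49033 bp from its TSS, in an intron that was not assigned to a gene. It had an ATRX fold of 11.9 and 5.68 in TERRA KD and no G4 peak in any list.

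Of these 85 sites, 30 had a tandem array at the summit, 34 another repeat and 21 neither. Among the 276 tandem sites the ATRX share was 6.16% and 13% under scramble KD, then 47.8% and 24.3% in TERRA KD, and among the 356 non-repeat sites it was 12.1% and 7.87%, then 46.9% and 21.1%. The ranges of both classes overlapped in each condition. Across the 6 families the ATRX share in TERRA KD ran from 30% (family 5) to 52.6% (family 6) in replicate 1 and from 7.5% (family 5) to 38.6% (family 4) in replicate 2.

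The 10 best-ranked sites with an ATRX peak in all 4 lists were near Vmn2r29, Erdr1 (3 sites), 4930470O06Rik, G530011O06Rik (2 sites), Mir6393, 4933402J15Rik and Ccr1. The ATRX fold at the Vmn2r29 site was 44.6 and 6.99 under scramble KD, then 207.1 and 39.8 in TERRA KD. An ATRX peak covered the ATAC summit itself at 3.27% and 2.8% of sites under scramble KD, then at 19.5% and 8.71% in TERRA KD, so most sites with an ATRX peak had it elsewhere in the site. At 1 kb before and after the summit, it was 1.32% and 2.33% in scramble KD replicate 1 and 1.01% and 1.71% in scramble KD replicate 2. In TERRA KD it was 6.53% and 7.0% in replicate 1, with 2.57% and 2.8% in replicate 2. Each library was thus higher at the summit than at 1 kb on either side, by little in scramble KD.

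**Figure D3:**
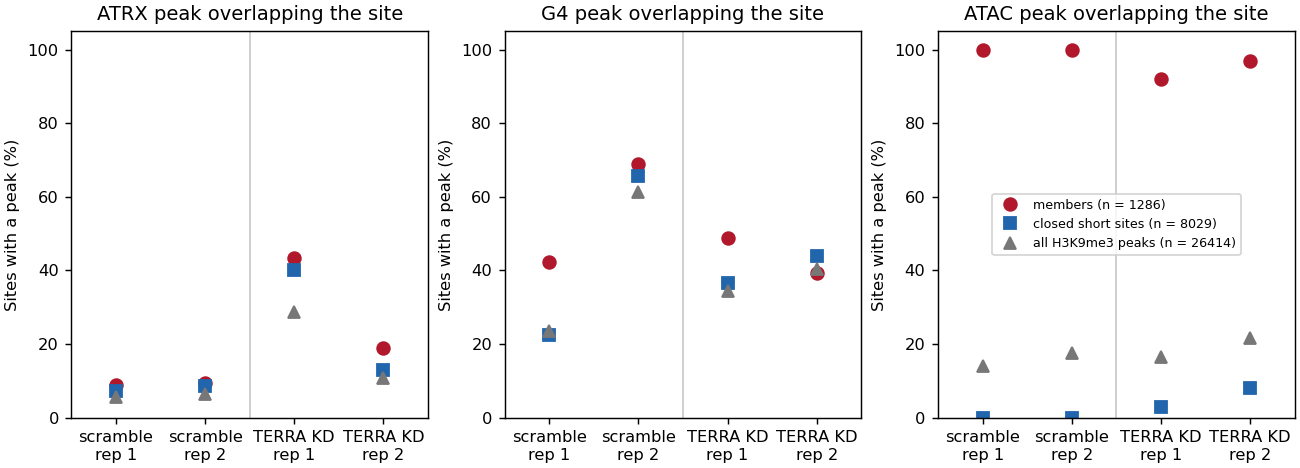
Points give the percent of sites that overlapped an ATRX, G4 or ATAC peak in each of the 4 libraries of an assay, for the 1286 sites (red circles), 8029 closed short sites (blue squares) and all 26414 peaks of H3K9me3 scramble KD replicate 1 (grey triangles). ATRX was higher in both TERRA KD libraries in all 3 sets, G4 differed in opposite directions in the replicates, and the scramble KD values of ATAC are fixed by the rule.

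G4 peaks differed in opposite directions in the replicates. They overlapped 544 sites (42.3%) and 885 sites (68.8%) under scramble KD, while in TERRA KD the numbers were 628 (48.8%) and 507 (39.4%). TERRA KD minus scramble KD gave 6.53 points in replicate 1, against −29.4 in replicate 2, and the conditions overlapped. The mean difference was −11.4 ± 25.4 points (SD, n = 2 differences), with p = 0.667 in the exact permutation test, whose smallest p is 0.333. Both G4 lists of a condition were called against inputs of the same size, 23359214 tags under scramble KD but 19824848 under TERRA KD, and the labels hold 1 further input per condition, so the replicates appear to share their control, and condition and input cannot be told apart. The G4 library with more tags had the higher share in each replicate number. With the 140119 top-ranked peaks of every list the share was 42.3% and 45.3% under scramble KD, then 44.2% and 27.8% in TERRA KD, so the difference in replicate 2 was smaller but of the same direction.

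Against closed short sites, G4 was higher at open sites by 19.8, 3.11 and 12.3 percentage points in scramble KD 1 and 2 and TERRA KD 1, and in TERRA KD 2 the share was lower, with a difference of −4.52. The mean was 7.67 ± 10.6 (SD, n = 4), with p = 0.375 in the exact sign-flip test. The order within the open sites was plain. The 276 tandem sites had a G4 peak in 88.8%, 97.1%, 95.7% and 45.7% over scramble KD 1 and 2 and TERRA KD 1 and 2. Sites with another repeat had 28.2%, 58.2%, 34.5% and 37.8%, and non-repeat sites 32.0%, 66.6%, 38.8% and 37.6%. The tandem class stood above the other two in each library, by the least in TERRA KD replicate 2. This class was defined after the values had been seen, so it was not tested.

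When sites with an array anywhere in the peak were left out of both sets, the mean difference between open and closed sites in G4 was −1.17 points, so its direction turned. The canonical G4 motif, 4 runs of at least 3 G with loops of up to 7 bases, was in 0.362% of tandem windows, 3.22% of those with another repeat and 8.99% of the rest. Over all sites it was in 4.2%, against 9.44% of ATAC summits and 21.3% of gene starts. The tandem sites thus had G4 peaks in most libraries without that motif in the 300 bp window, while their GC content was high (median 65.0%, against 46.7% and 47.5% in the other classes).

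**Figure D4:**
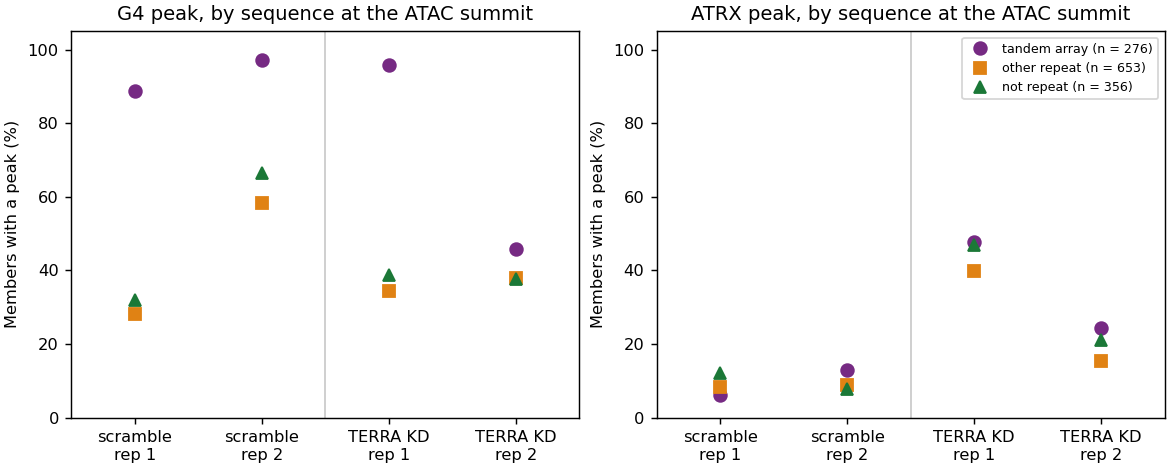
Points give the percent of sites with a G4 peak (left) or an ATRX peak (right) in each library, for sites with a tandem array at the ATAC summit (n = 276), with another repeat (n = 653) or with neither (n = 356). The tandem class is highest for G4 in all 4 libraries, at 88.8% to 97.1% in the other libraries and 45.7% in TERRA KD replicate 2, and the classes overlap for ATRX.

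A G4 peak was listed in all 4 libraries at 271 sites (21.1%), against 13.3% of all peaks and 12.9% of closed short sites, and 109 of the 271 were tandem sites. No library had one at 326 sites (25.3%), against 32.1% of all peaks and 27.7% of closed short sites. In both scramble KD lists and neither TERRA KD list it was found at 20 sites (1.56%), against 1.53% of all peaks, and in both TERRA KD lists alone at 4 sites (0.311%), against 0.386%. Both shares were thus close to the background. The 10 best-ranked of the 20 were near Steap4, Btbd35f12, Adam5, Klhl9, Syt1, Fam110c, Hint3, Hmgxb4, Ifngr2 and Thumpd2. The site over the TSS of Klhl9, an adaptor of a ubiquitin ligase, had a G4 fold of 12.1 and 3.68 in scramble KD, no ATRX peak in any list, and an ATAC fold of 4.88, 11.3, 10.3 and 13.4. The 4 with G4 in TERRA KD only were near Epha6, Gm10754, Olfr318 and Tex36.

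Accessibility was kept at most sites in TERRA KD. An ATAC peak overlapped 1182 sites in TERRA KD replicate 1 (91.9%) and 1248 in replicate 2 (97.0%), and 1171 had one in both. The scramble KD share is complete by the rule, so any change could only be downward and no test was made. Of the 65915 ATAC peaks of scramble KD replicate 1 that were shared with replicate 2, 88.4% and 93.5% were in the TERRA KD lists. At closed short sites, where the rule fixed the start at 0, an ATAC peak appeared at 2.96% and 8.08%. The mirror set, chosen with the H3K9me3 and ATAC lists of TERRA KD, held 1450 sites, of which a mean of 83.2% had a scramble KD ATAC peak, against 94.5% for the sites here.

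Neither TERRA KD list had an ATAC peak at 27 sites (2.1%), against 2.47% of the 3199 peaks of any length with an ATAC peak in both scramble KD lists and 3.99% of the shared ATAC peaks. These sites were weak to begin with, with a median scramble KD fold of 3.8 and 3.45, against 6.41 and 7.94 at sites kept in both lists. The best-ranked 10 were near Trim24, Olfr19, Gm2921, 5430403G16Rik (2 sites), Dmac1, Gm10512, Usp13, Ptchd3 and Scpep1os. The first lay in an intron of Trim24, a reader of histone marks, with an ATAC fold of 4.34 and 4.43 in scramble KD. None of the 27 was within 1 kb of a TSS, but only 4.04% of all sites were, so this count says little. Another repeat was at the summit of 20 (74.1%), against 653 of the 1285 sites with sequence.

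H3K9me3 peaks at the sites had higher median lengths in TERRA KD. The longest peak overlapping a site had a median of 4157.5 and 666.5 bp under scramble KD, then 5390 and 746.5 bp in TERRA KD, a log2 ratio of 0.38 in replicate 1 and 0.16 in replicate 2. It was longer in TERRA KD at 971 sites and shorter at 315 in replicate 1, and longer at 763 and shorter at 521 in replicate 2. In TERRA KD replicate 1 it reached 8 kb or more at 267 sites (20.8%). Closed short sites differed in the same way, with log2 ratios of 0.53 and 0.21. The peak was longer in TERRA KD at 81.1% and 63.3% of them, against 75.5% and 59.3% of the open sites, and reached 8 kb at 17.6% in replicate 1. The limit of 8 kb was set on scramble KD replicate 1, where no site could exceed it, and its part in these values was not tested. The mirror set, with its limit on TERRA KD, gave a mean log2 ratio of 0.27, the same as the 0.27 here. Peaks of the whole lists were also longer in TERRA KD, by their medians above.

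**Figure D5:**
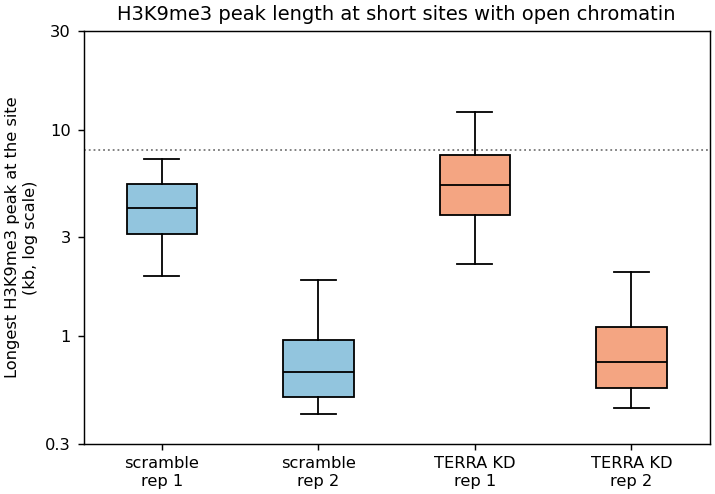
Boxes give the median and quartiles, with whiskers from the 5th to the 95th percentile, of the longest H3K9me3 peak (kb, log scale) overlapping each of the 1286 sites in each library. The dotted line is the limit of the rule, and medians are 4157.5 and 666.5 bp under scramble KD, then 5390 and 746.5 bp in TERRA KD.

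Close to the limit of 8 kb, the 3 longest sites measured 7984, 7990 and 7993 bp, near Tdrd3, Gm8579 and Gm3173, with an H3K9me3 fold of 36.2, 58.7 and 24.9. The 3 shortest peaks left out by length alone measured 8008, 8014 and 8045 bp, near Pfkp, Gm8579 and 6030407O03Rik, with a fold of 23.2, 63.0 and 31.3.

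Sites were found on every autosome, X and Y. Chromosome 6 had the most, 139 or 0.928 per Mb, which was 18.3% of its open and closed short sites together. Over the autosomes and X that share ran from 9.6% on X to 19.6% on chromosome 10. On chromosome Y the share was 30.8%, over 20 sites. Of these, 15 lay within chrY:90719363-90827320, near G530011O06Rik and Erdr1, at the end of Y that carries the pseudoautosomal region, which X and Y share. The line is XX by the methods, and the origin of the tags placed on Y, from related copies, feeder cells or elsewhere, was not tested. In this stretch ATRX was listed at 15 and 11 of the 15 sites in scramble KD and at 15 and 14 in TERRA KD. G4 was listed at 9 and 9 under scramble KD, then 10 and 5 in TERRA KD. On the autosomes and X alone, the mean ATRX difference between open and closed sites was 2.17 in place of 3.05 percentage points. This setting held 1265 sites and 7947 closed short sites, and left out unplaced sequence as well as Y.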

How the data were processed

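The study's authors trimmed reads with Trim Galore (version 0.5.0), aligned them to mm10 (GRCm38) with Bowtie2 (2.3.4.1) and filtered them with SAMtools (1.9). Duplicates were removed, and every library had its own peak list, at a p cutoff of 0.01. Per the file headers, ATRX and H3K9me3 peaks came from MACS version 1.4.3 and G4 peaks from version 1.4.2, with input as control, and version 2.2.7.1 was run on ATAC libraries without input. The 16 deposited lists were used, and 6 input samples have no list of their own. The deposited ChIP lists give counts of tags per peak, a score of −10 log10 of the p, a fold enrichment, which is a ratio to local background, and a false discovery rate in percent, which was not used. The deposited ATAC lists give the height of the pileup signal, fold enrichment and −log10 of p-values. None of these is scaled between libraries, so shares of sites with a peak were compared. A site without a peak is one where enrichment was not detectable at that depth.

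Overlap meant at least 1 bp. Genes were the 26182 curated RefSeq genes of GRCm38, whose chromosome lengths equal those of mm10, and a site took the name of the gene with the nearest TSS. A site's feature (exon, intron) was read at its ATAC summit when a single site is described. Conditions were compared with exact permutation tests over libraries and open with closed sites with exact sign-flip tests (Python 3.11.15, scipy 1.17.1). Overlap, array and family searches were tested on simulated data. Named sites were the genes of the lists with a site over the body or within 1 kb of the TSS, the 10 best-ranked sites, up to 10 for each fate of ATRX, G4 and ATAC, and the 3 on either side of 8 kb. The sites, lists, motifs and tests were chosen with earlier results of these data known, and the fates with fewer than 10 sites, families, arrays and the YY1 word were added after seeing the data. Alternatives were a −log10 p of at least 5, an overlap of 200 bp, a limit of 4 kb and another base list. Further ones were the mirror set, equal numbers of peaks, autosomes and X only, each replicate left out and a replicate block. The last were a TSS window of 2 kb and sites without arrays. Some items are not reported here.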

Additional observations from a re-analysis of the deposited data

How the results depend on the processing

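Of 63 alternative values, 56 were labelled the same, 4 moved and 3 reversed, and the cause was not tested. For ATRX and G4 only the direction was judged, since no p could fall below 0.05. ATAC and H3K9me3 length had to stay within the SD of the replicates, and sites near a TSS within a binomial interval of their share. The mean differences of the replicate block equal the reported ones by construction. Sizes varied more: over their alternatives, the ATRX difference between conditions (22.0 points) ran from 4.59 to 34.5, ATRX in open against closed sites (3.05) from 0.755 to 8.09 and G4 in open against closed sites (7.67) from −1.17 to 18.5. ATAC at the sites in TERRA KD, a mean of 94.5%, was 88.1% with a −log10 p of at least 5, 87.7% with H3K9me3 scramble KD replicate 2 as the base list and 83.2% in the mirror set. Sites near a TSS were 1.62% with that base list, in place of 4.04%. The G4 difference between open and closed sites, 7.67 points, was −1.17 for sites without a tandem array, an alternative chosen after seeing the data. Leaving out each replicate in turn, it ran from −0.705 without replicate 1 to 16.0 without replicate 2. Likewise, the G4 difference between conditions ran from −29.4 to 6.53, that of ATRX from 9.41 to 34.5, ATRX in open against closed sites from 2.6 to 3.51 and ATAC from 91.9% to 97.0%. With 1 library per condition the differences between conditions have no test. Open against closed sites then rest on 2 libraries, where the exact sign-flip test cannot give a p below 0.5.

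With the replicate number as a block (replicate block), the mean difference was 22.0 points for ATRX, with p = 0.5 in an exact permutation test, the smallest p that 2 pairs allow, and −11.4 for G4, with p = 1.0. By their labels, libraries of the same number shared only that number. For ATRX the depth of the inputs also differed between the numbers, as given above. Deviations correlated across the 1286 sites, which are not independent, with r = −0.0232 for ATRX and 0.248 for G4. Few tags limit what a list can show, and a site without a peak may be enriched below the cutoff.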

Other observations

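Beyond chromosome Y, the 1 Mb windows with the most sites were on chromosomes 12, 14, 13 and 6. The window chr12:19000001-20000000 held 7 sites and 26 closed short sites, chr14:44000001-45000000 held 7 and 6, and chr14:41000001-42000000 held 6 and 2. The windows chr13:66000001-67000000 and chr6:37000001-38000000 held 6 sites each, beside 17 and 9 closed ones.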
